A study of Oryza sativa with 12 samples.

Results

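The 200 probe sets described here were selected on their own signal, as the ones that stood highest in leaves of normal growth in which CCA1 was also high. The rule was that each of 3 arrays of normal growth, *osnadk1* replicates 1 and 2 and WT replicate 1, lay above every one of the other 9 arrays. Their mean on those 3 arrays also had to be at least 9 log2 units, and the 200 with the largest mean difference from the other 9 arrays were taken. Control and reporter probe sets were left out, as were genes named CCA1, PRR, GI, CAB or HD3A. Of 57381 probe sets on the array, 3042 lay above every other array on these 3 arrays, 2023 also reached the level, and 2019 remained after the named genes were left out. In the reference, 146 of the 200 map to 1 gene (129 genes in all), 2 to several genes and 52 to none.

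Affymetrix rice genome arrays measured RNA of the youngest fully expanded leaf of 2.5-month-old rice, with 3 arrays for each of 4 groups. The groups were *osnadk1* under drought and under normal growth, and WT under drought and under normal growth. The mutant *osnadk1* carries a T-DNA insertion in OsNADK1, a gene for a kinase that makes NADP from NAD, and the WT parent is the japonica cultivar Dongjin. Plants of both genotypes shared a pot, and the mutant stands for 1 insertion line. Leaves of the drought groups were taken on day 15 at a soil moisture of 8.5%, and those of normal growth on day 0 at 47.3%, so a comparison of drought with normal growth also holds those days. Label prefixes split the arrays into 2 sets, called set A and set B here, each with all 4 groups. Set A holds replicates 1 and 2 of *osnadk1* and replicate 1 of WT in each condition, and set B holds the rest. That a set was 1 hybridisation job is an inference, and WT arrays carry the word re-analysis in their labels. The hour at which leaves were cut is not given in the sources used here.

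Plants keep time with a circadian clock, in which CCA1, a MYB-like transcription factor, peaks around dawn and in Arabidopsis represses genes of the evening. Much of what a leaf does with light and sugar, such as pigment synthesis, carbon fixation and starch turnover, follows the time of day. Transcripts that rise and fall with CCA1 therefore belong to many pathways at once.

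CCA1 itself, left out of the selection by name, had 13.34, 13.02 and 13.79 log2 units on *osnadk1* normal 1 and 2 and WT normal 1, against 7.31 to 8.63 on the other 9 arrays. CCA1 was thus high on the same 3 arrays that chose the members, although a second CCA1 probe set was dim on all 12 arrays. The evening clock gene PCL1 ran the other way, at 6.08 to 6.90 log2 units on the 3 arrays and 14.38 to 14.99 on the other 9. OsNADK1 was at 3.96 to 5.16 log2 units in *osnadk1* and 9.55 to 10.27 in WT under normal growth, and at 4.39 to 5.65 in *osnadk1* and 9.43 to 9.53 in WT under drought, so the genotype labels held on all arrays. Array medians lay between 5.08 and 5.43 log2 units. Hybridisation spikes averaged 11.94 to 12.03 on the 3 arrays and 11.79 to 12.10 on the other 9, and the 3′ minus 5′ difference of rice actin was 3.34 to 3.84 against 3.66 to 4.69. Whether RNA quality has a part in the selected difference was not tested. Markers of other organs gave 0 members of 8 root, 12 pollen or panicle, 13 seed and 18 dividing-cell probe sets, and their mean log2 signal ranged as follows: root 4.03 to 4.33 on the 3 arrays against 3.42 to 4.99, pollen or panicle 3.89 to 5.21 against 3.01 to 4.68, seed 4.91 to 5.06 against 4.72 to 5.57, and dividing cells 7.23 to 7.42 against 7.02 to 7.55. Leaf markers averaged 12.19 to 12.56 against 10.72 to 11.67, and 1 of their 9 probe sets was a member. Over the whole array 200 of 57381 probe sets were members, and each list count in this text stands beside that share. Means of the lists of other organs and of dividing cells also lay below the level of 9 that the rule required. Their counts of 0 are therefore no check of tissue. The part of these markers in the selected difference was not tested.

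The selected difference is a description, since it chose the members. The median member averaged 11.71 log2 units on the 3 arrays and 7.64 on the other 9, and the median difference was 3.73 (13.3-fold). Differences ran between 2.88 (7.35-fold) and 9.11, with 79 of at least 4, 32 of at least 5 and 7 of at least 7. No fold is given for the largest, a SWEET2B probe set, since it was dim on all of the other 9 arrays. The gap between the lowest of the 3 arrays and the highest of the other 9 had a median of 2.62 and a smallest value of 0.07. The 3 members just inside the limit differed by 2.88 each, and the 3 just outside it by 2.88, 2.87 and 2.87. WT normal 1 was the lowest of the 3 arrays for 101 members and the highest for 69. Of the 200, 188 reached their own array's median on at least 3 of the other 9 arrays and 5 on none. Every member outside those 188, the 5 included, could enter the tests only with the help of the selecting arrays.

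**Figure D1:**
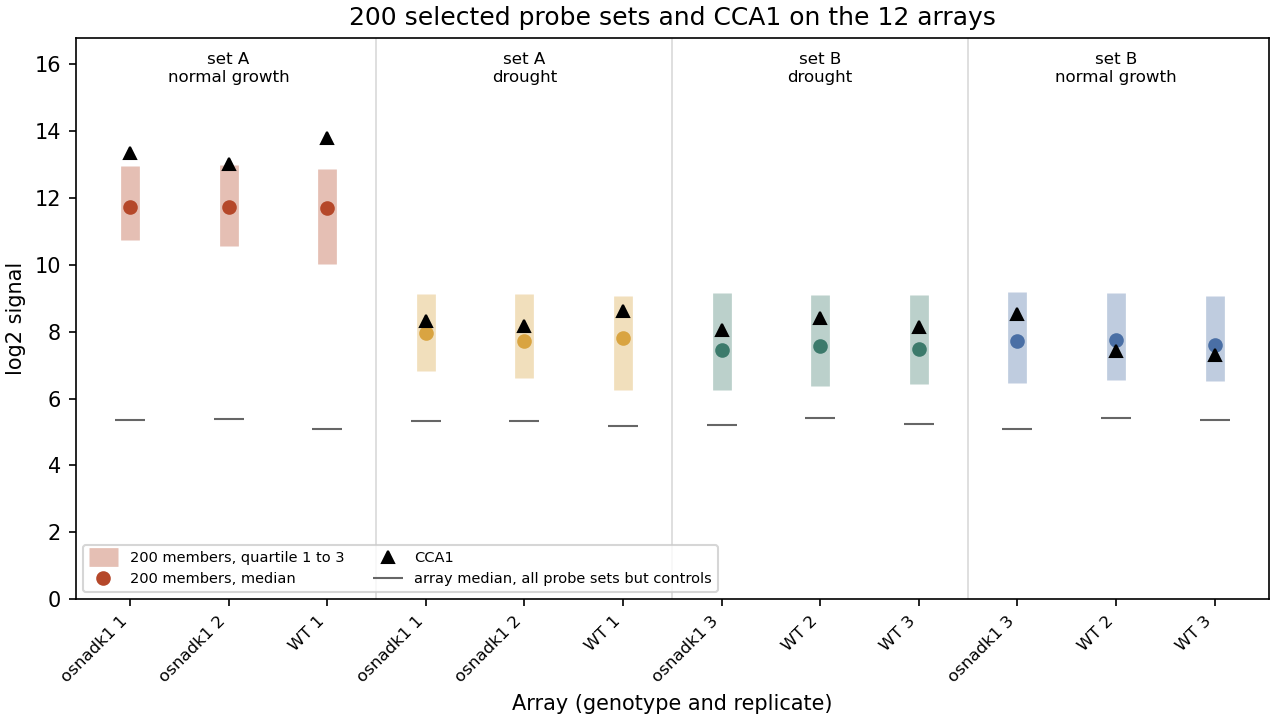
The log2 signal of the 200 members on each array (bar, quartile 1 to 3; point, median), with CCA1 (triangle) and the median of the array (dash). Member medians are 11.70 to 11.75 on the 3 set A arrays of normal growth and 7.47 to 7.96 on the other 9, which follows from how members were selected.

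Most genes of largest difference have no name in the reference. Among the 20 members of largest difference that map to 1 gene, only SWEET2B, FRO1, PIP2;4 and BGLU22 are named. The study's annotation adds a MYB family factor, LOC4342135. SWEET2B (LOC4326923, chromosome 1), of the SWEET family of sugar transporters, had 11.55, 11.84 and 12.61 log2 units on *osnadk1* normal 1 and 2 and WT normal 1, against 0.17 to 4.94 on the other 9. All of those 9 values lay below the array median, so the size of its difference rests on dim values. Its other probe set had 11.74, 12.04 and 13.06, against 2.83 to 5.87. FRO1 (LOC4335953, chromosome 4), named as a ferric reductase, had 12.99, 13.10 and 13.32, against 5.15 to 6.42. These genes lay near or below the array median on the other 9 arrays and far above it on the 3. Of the unnamed genes, LOC4339759 (12.62 to 12.93 against 4.94 to 6.34), LOC4351693 (13.71 to 14.64 against 5.21 to 9.87) and LOC4337941 (12.95 to 13.29 against 5.92 to 7.21) differed by 7.19, 7.15 and 6.72.

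Of the 129 genes, 13 had more than 1 member probe set. LOC4339294 had all 4 of its probe sets among the members, with differences of 4.09 to 5.77, and LOC4344160 all 3 of its own, with 3.21 to 3.77. Probe sets of 1 gene share a transcript and are not separate evidence. For some genes a further probe set differed less or did not follow. Values given for a gene are those of its member probe set unless stated. HSFA2D had 13.77, 13.90 and 12.19 log2 units against 7.62 to 10.20 on its member probe set, but 12.61 to 12.72 against 12.63 to 12.89 on its other. Its record in the reference also carries names of an acireductone dioxygenase, so which gene the member reports is uncertain. BIPP2C1, a protein phosphatase of type 2C, had 12.79, 13.25 and 13.09 against 7.84 to 9.16 on the member and 14.95 to 15.32 against 14.73 to 15.22 on another. In the annotation 2 pairs of member genes are direct neighbours on chromosome 1, SWEET2B with LOC4326922 and LOC4326912 with LOC4326913, and BIPP2C1 lies 1 gene away from RINO1 on chromosome 3.

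Chloroplast pigments and isoprenoids were represented by 3 genes and another of uncertain identity. ISPH, the last enzyme of the plastid isoprenoid pathway, had 14.67, 14.80 and 14.79 log2 units on the 3 arrays, against 11.25 to 12.60 on the other 9. PSY2, phytoene synthase, which opens carotenoid synthesis, had 13.36, 13.39 and 12.97, against 7.54 to 9.98. HEMB, which makes porphobilinogen on the way to chlorophyll and heme, had 12.72, 12.27 and 12.41, against 8.63 to 9.91. The other, CAO, had 14.09, 13.88 and 13.65, against 9.74 to 10.74, but its record also carries the name Lls1, so which gene the member reports is uncertain. In the 2 lists they come from, 4 of 26 probe sets were members, beside 200 of 57381 on the array.

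Photosynthesis and carbon use gave further members. RCA, rubisco activase, was bright throughout, at 14.97, 15.31 and 15.06 log2 units on the 3 arrays and 11.55 to 12.93 on the other 9. PSAG, a subunit of photosystem I, had 13.47, 13.32 and 13.70, against 9.67 to 10.43, and ALDP, the plastid aldolase, 13.37, 13.17 and 12.50, against 7.87 to 9.97. Other probe sets of ALDP were brighter and differed less, at 15.05 to 15.33 against 13.62 to 13.99 and 14.92 to 15.12 against 12.82 to 13.42. A second PSAG probe set differed less too, at 6.64 to 7.22 against 4.81 to 6.48. So did the other RCA probe sets, the brightest at 15.28 to 15.49 against 12.76 to 13.73. GLK1, a transcription factor of chloroplast development, had 13.09, 12.96 and 12.62, against 9.25 to 10.89. Photosystem and carbon fixation counted 3 members of 18 probe sets and light signalling 1 of 12. GBSS1, the granule-bound starch synthase that makes amylose, had 10.45, 10.55 and 9.94, against 4.97 to 6.52, as the 1 member of 34 starch probe sets. The other probe sets of GBSS1 all differed less. The brightest of them had 10.18 to 10.58 against 8.64 to 9.29, and another overlapped, at 6.63 to 6.81 against 4.39 to 6.69. The size of the GBSS1 difference thus depends on the probe set.

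Genes of transport and signalling and genes named as beta-glucosidases were among the rest of the named members. AMT1;1, an ammonium transporter, had 13.04, 13.67 and 13.31 log2 units, against 8.83 to 10.24, and CBL4, a calcium sensor, had 9.96, 9.92 and 9.70, against 6.20 to 6.64. MRS2-A, of a family of magnesium transporters, had 13.10, 13.31 and 13.44, against 8.75 to 9.67. RINO1, which makes inositol phosphate, had 13.32, 11.75 and 11.77, against 6.80 to 9.55, and CKX11, which degrades cytokinin, had 11.12, 11.43 and 12.10, against 7.59 to 9.38. Genes with a beta-glucosidase name, which need not tell what each enzyme does, gave 5 members of 39 probe sets. BGLU22 differed by 5.05, SFR2 (BGLU36) by 3.81 and 3.20 on its member probe sets, and BGLU3 and BGLU31 by 2.96 each. Further probe sets of AMT1;1, CKX11, SFR2 and BGLU3 differed less than the members. That of AMT1;1 overlapped, at 4.84 to 6.66 against 2.09 to 5.21, as did 1 of BGLU3, at 3.60 to 4.43 against 0.00 to 5.12. HSFB2A, a heat shock factor of class B, had 2 member probe sets, and heat shock factors 3 of 29. Heat shock proteins had 0 of 38, DREB1 factors 0 of 7, LEA proteins and dehydrins 0 of 10 and SAPK kinases 0 of 10. With 200 of 57381 probe sets as members, lists of this size would mostly give 0. On the 3 arrays these lists averaged 7.58 to 8.62, 5.22 to 5.58, 2.87 to 3.86 and 9.83 to 10.17 log2 units. All but the last lay below the level of 9 that the rule required. The counts of 0 therefore do not show whether such genes differed.

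**Figure D2:**
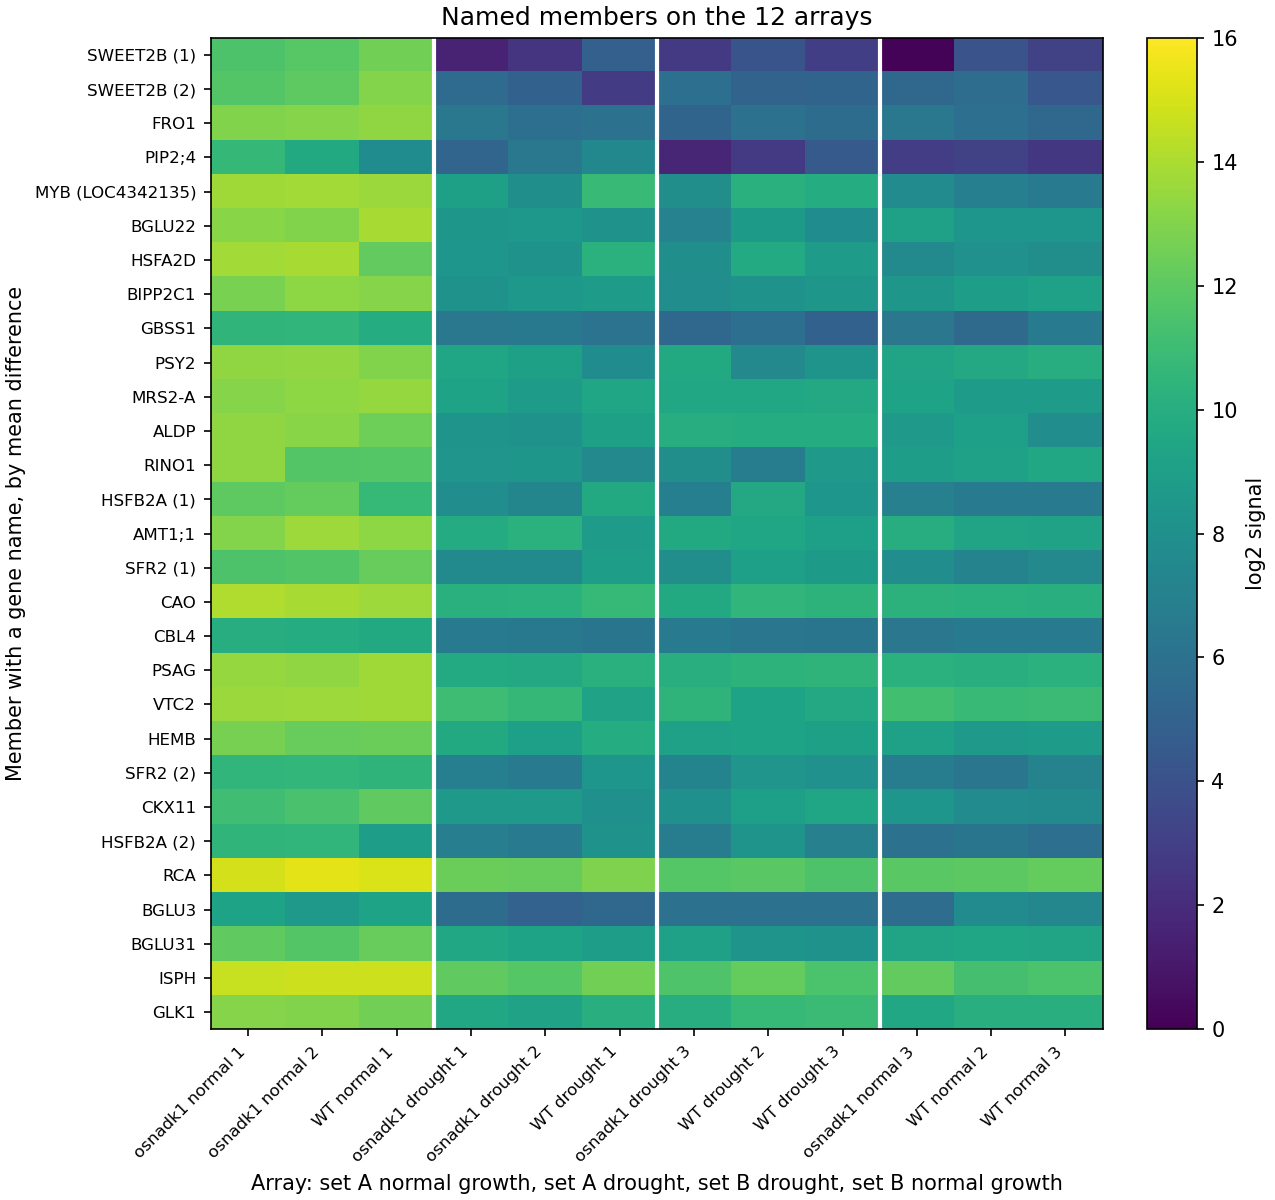
Log2 signal (colour) of members with a gene name, in rows by falling mean difference, on the 12 arrays in columns, with white lines between set A normal growth, set A drought, set B drought and set B normal growth. ISPH and RCA are bright on all arrays, and SWEET2B is dim on the 9 that the rule set apart from the first 3.

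The members need not have varied with CCA1 outside the arrays that chose them. Over the other 9 arrays, where CCA1 moved between 7.31 and 8.63 log2 units, Pearson's r between a member and CCA1 had a median of 0.03, beside -0.05 over all probe sets, and 109 of 200 were positive. These 9 arrays mix conditions and sets, and r is given as a description. The 5 members most like CCA1 there were LOC4327776 (r = 0.88), ISPH (0.85), LOC4343604 (0.82), LOC4351372 (0.81) and LOC4326901 (0.78). At the other end, BGLU3 had -0.87.

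Comparisons that the selection did not use were tested with limma on 32110 probe sets, which all 200 members passed into, with Benjamini-Hochberg adjustment over all of them and an adjusted p of 0.05 as the threshold. Each of them weighted the 3 selecting arrays so that their shared mean dropped out, but the requirement that each lie above the other 9 remained. The labels call the arrays biological replicates without naming plants or pots, so a p-value covers only the variation seen from array to array. Drought was set against normal growth within set B, where neither side had been used as the high state. Here 5 members rose and 6 fell, against 0.894% of all probe sets that rose and 0.427% that fell. The median member changed by -0.12, beside -0.01 over all tested. The members' spread over 3 arrays was wider than that of all expressed probe sets outside the selecting arrays, with a median SD of 0.39 against 0.24 in set B under normal growth. Those 3 arrays hold both genotypes, so this SD includes any genotype difference and is not the spread used by limma.

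The MYB family factor LOC4342135 (chromosome 6) had 7.88, 10.17 and 9.93 log2 units under drought in set B (*osnadk1* 3, WT 2 and 3) and 7.72, 6.93 and 6.65 under normal growth. With the genotype difference of each condition in the fit it rose by 1.76 ± 0.26 (± standard error, limma adjusted p = 0.0144). The arrays did not move alike, since *osnadk1* 3 had 7.88 under drought and 7.72 under normal growth, and the 2 WT arrays carried the rise. LOC4345968 rose most, by 2.15 ± 0.33 (limma adjusted p = 0.0172), at 10.57, 11.38 and 11.82 under drought and 8.00, 9.46 and 9.48 under normal growth. For both genes every drought array of set B lay above every normal growth array of set B. LOC4335474 rose by 1.72 and LOC4331944 by 0.99, and the fifth riser, at 1.27, has no gene in the reference. LOC4351698, annotated as VTC2, which in Arabidopsis acts in ascorbate synthesis, fell by 0.99 ± 0.18 (limma adjusted p = 0.0324), with 10.38, 9.29 and 9.65 under drought and 11.15, 10.85 and 10.90 under normal growth. A probe set annotated as a steroid 4-dehydrogenase (Os07g0162100) fell by 1.61 and LOC4331141 and LOC4350873 by 0.82 and 0.57. The other 2 that fell have no gene in the reference, and fell by 2.16 (the member ranked 167 by difference) and 1.30. Without *osnadk1* drought 3, 1 member was called, and without WT normal 1, 34 were. The share of all probe sets called in those fits is not given here.

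Between the sets, drought arrays of set A were compared with drought arrays of set B, which carry different label prefixes and cannot be told apart from any difference in stress. Here 5 members were higher in set A and 3 lower, against 0.508% and 1.11% of all probe sets, and leaving out 1 array at a time gave 3 to 17 calls in all. The median member was 0.16 higher, beside 0.02 over all. For scale, 4 of 6 tested LEA protein and dehydrin probe sets, of which none is a member, were lower in set A drought. One of the 5 was PIP2;4, a water channel of the plasma membrane, at 5.21, 6.43 and 7.48 log2 units in set A drought (*osnadk1* 1 and 2, WT 1) and 1.73, 2.75 and 4.52 in set B drought. It reached the array median on only 2 of the 9 arrays outside the selection and entered the test through the selecting arrays, so its values are a description. With the signal filter taken on those 9 arrays it was not tested, and 4 members were higher and 3 lower. LOC4333004 was higher by 1.77 ± 0.18 and 1.20 ± 0.16 on 2 of its 3 member probe sets (limma adjusted p = 0.00112 and 0.00468), and by 0.92 on the other, which did not pass. RCA was 0.87 ± 0.17 higher (limma adjusted p = 0.0392), with 12.41, 12.25 and 12.93 in set A and 11.80, 11.90 and 11.55 in set B, and lost its call on leaving out any of 8 single arrays. This was the 1 probe set called of 9 leaf-marker probe sets tested, so the other probe sets of RCA, which are among those 9, did not pass. LOC4335474 and LOC4345968, which rose under drought in set B, were lower in set A drought by 1.68 and 1.66, as was LOC4325348 by 1.04. LOC4345968 lost its call on leaving out any of 9 single arrays. That comparison shares its set B drought arrays with the one above. The member ranked 167, with no gene, was 1.58 higher.

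**Figure D3:**
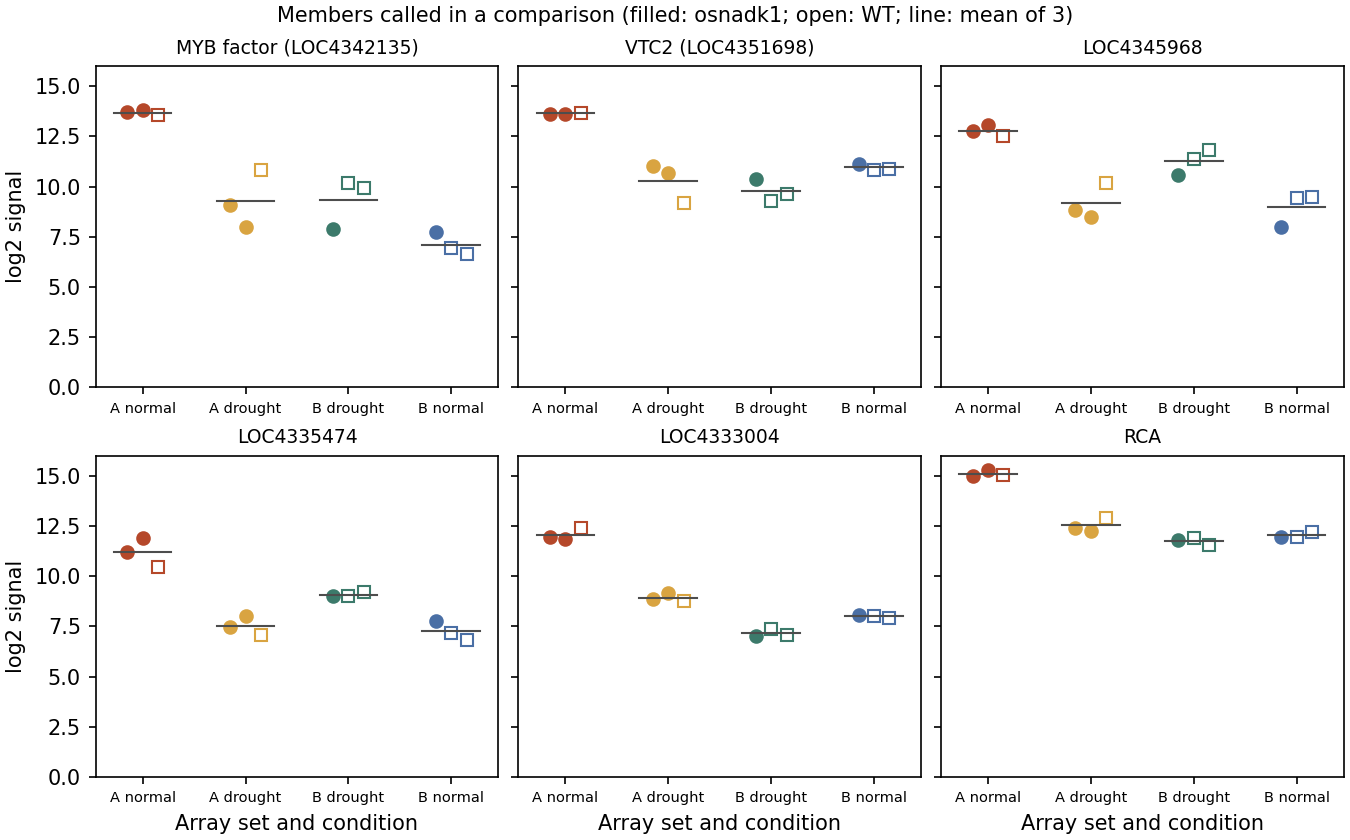
Log2 signal of 6 members called in at least 1 comparison, by array set and condition, with filled circles for *osnadk1*, open squares for WT and a line at the mean of 3. The MYB factor and VTC2 separate the genotypes under drought in both sets, and LOC4335474 is lower in set A drought than in set B drought.

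The study asked how *osnadk1* differs from WT in each condition. Compared within the array sets, 2 members were higher in *osnadk1* under normal growth and 0 lower, against 0.121% and 0.206% of all probe sets, and the unadjusted p was under 0.05 for 33 members (16.5%, beside 9.05% of all probe sets). The member ranked 167 was higher by 1.69 ± 0.16 (limma adjusted p = 0.00245), and an x_at probe set of LOC4344160 by 1.78 ± 0.30 (limma adjusted p = 0.0494). The gene's other 2 probe sets were at 0.95 and 0.68 and did not pass, and an x_at probe set may detect other transcripts too. The x_at call was lost on leaving out any of 11 single arrays. The median member was 0.15 higher, beside 0.00 over all. Within set A this compares the 3 selecting arrays with each other, WT normal 1 being the single WT array there, so it is not independent of the rule. Without those 3 arrays, 7 members were called, 4 higher and 3 lower, both of the members above among them. The share of all probe sets called in that fit is not given here.

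Under drought 1 member was higher in *osnadk1* and 1 lower, against 0.0654% and 0.0436% of all probe sets. The MYB factor LOC4342135 had 9.07, 7.99 and 7.88 log2 units in *osnadk1* and 10.84, 10.17 and 9.93 in WT, and was lower by 2.24 ± 0.27 (limma adjusted p = 0.0182). VTC2 (LOC4351698) had 11.03, 10.68 and 10.38 in *osnadk1* and 9.19, 9.29 and 9.65 in WT, and was higher by 1.29 ± 0.18 (limma adjusted p = 0.0386). In both the genotypes did not overlap, and no other member passed. The calls were not stable: the MYB factor lost its call on leaving out any of 4 single arrays and VTC2 on leaving out any of 8, and no member was called without *osnadk1* normal 2, WT drought 1 or WT drought 2. HSFB2A had 7.87, 7.37 and 6.89 in *osnadk1* and 9.69, 9.65 and 8.42 in WT on 1 probe set, at -2.11 ± 0.33 (limma adjusted p = 0.0593). Its other member probe set had 6.85, 6.62 and 6.80 against 8.25, 8.25 and 6.98, at -1.16 ± 0.41 (limma adjusted p = 0.399). PSY2 had 9.49, 9.10 and 9.73 in *osnadk1* against 7.80, 7.54 and 8.28 in WT, at 1.66 ± 0.25 (limma adjusted p = 0.051). The genotype difference under drought minus that under normal growth called 0 members and 0% of all probe sets in either direction by limma, with 42 members at an unadjusted p under 0.05 (21%, beside 7.03% of all probe sets). It uses the selecting arrays through its normal growth side, so it is not independent of the rule. Unadjusted shares were also above those of all probe sets elsewhere. They were 29.5% beside 9.08% for genotype under drought, 37% beside 13.0% for drought in set B, and 24% beside 13.8% between the sets under drought. All such shares are over the 200 members. They include members outside the 188, which could enter the tests only with the help of the selecting arrays. Some members also share a gene, so the shares are a description and no test of the members as a set. The unblocked grouping of the 4 groups, which leaves the selecting arrays uneven over genotypes, put the median member 1.41 higher in *osnadk1* under normal growth. That value holds the contrast the members were chosen on and is given only to show its size.

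**Figure D4:**
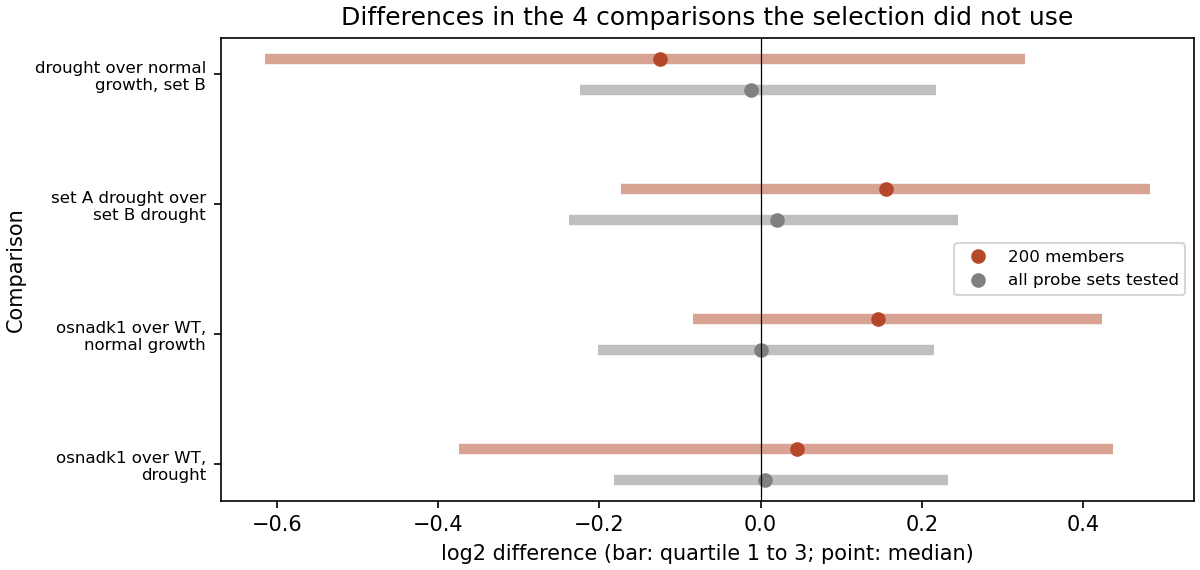
Log2 differences in the 4 comparisons, as median (point) and quartile 1 to 3 (bar), for the 200 members (upper of each pair) and all probe sets tested (lower). Member bars are wider than the bars of all probe sets, and the member medians are -0.12, 0.16, 0.15 and 0.05.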

How the data were processed

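Total RNA of 12 leaf samples was hybridised to Affymetrix rice genome arrays, 3 per group. The deposited values are log2 signals from MAS5, named in the submitters' processing notes without a version. The linear trimmed mean was 500.07 to 500.08 on every array, as if scaled by the authors, and no further normalization was applied. Only deposited columns of the 12 samples were used.

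Members and gene lists were chosen with earlier results of these data known. Lists were set by gene symbol once the reference was at hand. Named members are the 20 largest differences, list members, called members, those at the limit and the 5 most like CCA1. BIPP2C1, MRS2-A, RINO1 and the steroid dehydrogenase were added after their values were seen. Gene names come from GEO's platform annotation and RefSeq (ASM3414082v1). A planned search of promoter motifs was not run, and no sequence was analysed here.

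limma 3.58.1 (R 4.3.3) fitted a mean for each set by condition and a genotype difference per condition (6 residual df), with a variance trend. Testing required a signal at or above the array median on 3 or more of the 12 arrays. That median was first taken with control probe sets in, which left 32074. It was changed, after those calls had been seen, to leave 123 control probe sets out, which left 32110, and both versions called the same members. On simulated data with log2 changes of 2 in 100 probe sets, 65 were recovered for drought against normal growth in set B, with 5 false calls. Alternatives were other normalizations, filters, floors, variance models, thresholds, a replicate block and leaving out each array. Precision is limited by 3 arrays per group. Figures were drawn in matplotlib.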

Additional observations from a re-analysis of the deposited data

How the results depend on the processing

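Members called, given for drought over normal growth in set B, set A drought over set B drought, *osnadk1* over WT under normal growth, *osnadk1* over WT under drought, and the difference of those 2 genotype effects, were 11, 8, 2, 2 and 0. Leaving out 1 array at a time gave 1 to 34, 3 to 17, 1 to 15, 0 to 14 and 0 to 12. In the first comparison 1 was called without *osnadk1* drought 3, 3 without WT normal 3, 5 without WT drought 2, 6 without WT drought 3, 18 without *osnadk1* normal 3 and 34 without WT normal 1. In the second 3 were called without *osnadk1* drought 3 or without WT drought 1, 17 without *osnadk1* normal 3 and 16 without WT normal 1. Without *osnadk1* normal 3 the last 3 comparisons called 15, 14 and 12, and without WT normal 1 they called 9, 13 and 7. The genotype count under normal growth was 1 on leaving out any of 9 other arrays, and that under drought was 0 without *osnadk1* normal 2, WT drought 1 or WT drought 2, 1 without any of 5 others and 4 without WT drought 3. Without a variance trend the counts were 3, 4, 1, 0 and 0, and with the 2-fold and unadjusted p of 0.05 of the methods 23, 18, 10, 27 and 26. With only the arrays compared the first 4 were 33, 12, 1 and 0. Without the 3 selecting arrays, an alternative chosen after seeing the data, they were 30, 14, 7, 10 and 3. Under normal growth the genotype count was 1 with quantile normalization, median centring or no filter, and under drought it was 4 with median centring or no filter. With no term for the array set the last 3 counts were 0. Of 509 values of called members under alternatives, 366 kept their call, 143 lost it and 0 changed sign. Same-numbered arrays had deviations correlated between -0.27 and 0.32 (18 pairs), and differently numbered arrays between -0.40 and 0.35 (36 pairs). Deviations were taken from the group means, so the split into sets enters both ranges and they cannot decide on pairing. The numbers were not taken as pairs, and with a replicate block the counts were 4, 0, 1, 0 and 0. Of the 200 members, 193 were shared with a selection after quantile normalization, 199 after median centring, 145 with no level limit and 158 when ranked by the gap. Counts under the alternatives, in this section and above, stand without the share of all probe sets called. Whether a changed count is particular to the members is therefore not shown. The cause of these changes was not tested. Detection calls were not used here, so dim values have no stated background, and 3 arrays per group limit what can be called.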
